A study of Mus musculus with 10 samples.

Results

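Opsins are the light-sensing receptors of photoreceptors and of a few other neurons, and the response they start must be ended as well as begun. In rods and cones a receptor kinase phosphorylates the light-activated pigment, an arrestin then caps it, and a regulator of G protein signalling hastens the end of the transducin signal, while a calcium sensor holds the kinase back in the dark. Opsins and shutoff genes were described here through 9 genes: the opsin genes Opn1sw, Opn1mw, Opn3 and Opn4, the arrestin genes Sag and Arr3, the receptor kinase gene Grk1, the recoverin gene Rcvrn and Rgs9. A gene was counted as measured where the platform annotation gave a probe that gene as its single symbol. This held for 8 of the 9 genes, with 1 probe each, out of 13840 genes named in this way. Sag had no such probe, so its level is not analysed here.

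The series measured total RNA on 10 single-channel Applied Biosystems chemiluminescent microarrays, as part of a comparison of platforms. The retina group (5 arrays) was RNA pooled from 350 adult C57/B6 mice, and the cortex group (5 arrays) was RNA pooled from 19 mice at postnatal day 1. The sample descriptions call the cortex mice C57/B6 and the series text calls them Swiss-Webster. No treatment or genetic change is given for either group. Each array was a repeat of its pool, so every p-value below rests on the spread between arrays and none on the spread between animals, and tissue cannot be told apart from age or, if the series text holds, from strain. The values came with no detection call used here, so the mean of probes named for olfactory receptors served as a yardstick of dim signal. The 95th percentile of 747 such probes was 10.77 log2 units for retina and 10.65 for cortex, and 51.5% of all probes lay below it in both tissues.

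The retina arrays held the markers of photoreceptors. All 6 measured rod markers were higher in retina, with a median difference of 10.14 log2 units, and so were all 7 cone markers (median 5.88), where the median over all 33012 probes was -0.01. The cone marker Thrb was called from values below the olfactory receptor percentile in both tissues (10.21 in retina, 7.99 in cortex). The mean level of the rod list was 19.57 to 19.69 on retina arrays and 9.34 to 9.62 on cortex arrays. Of 5 markers of retinal ganglion cells 4 were higher (median 4.37). Some markers of neighbouring tissue were higher too. Of 6 retinal pigment epithelium markers 5 were higher (median 3.69) and Best1 was not called (-0.14). Pmel, counted among these 5, was below the olfactory receptor percentile in both tissues (10.48 in retina, 8.34 in cortex). Of 5 lens markers 3 were higher (median 6.48), the crystallin genes Cryaa, Cryba1 and Crygs. The lens genes Mip (0.03) and Bfsp1 (-0.58) were dim in both tissues and not called. Whether lens tissue was in the pool was not tested. Of the pineal list only Tph1 was measured, averaging 9.80 ± 0.28 in retina against 10.72 ± 0.36 in cortex (SD, n = 5), and it was not called.

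The 250 bases before the RefSeq gene start (GRCm38.p6) are shown for 4 genes: the cone genes Opn1sw, Opn1mw and Arr3, which were all far higher in retina, and Rgs9, which was lower. The transcription factors CRX and OTX bind sites with the core TAATC, NRL binds sites that hold TGCTGA, and nuclear receptors bind sites that hold AGGTCA. Capitals mark each of these on either strand, each sequence running 5′ to 3′ along the gene's strand.
Opn1sw: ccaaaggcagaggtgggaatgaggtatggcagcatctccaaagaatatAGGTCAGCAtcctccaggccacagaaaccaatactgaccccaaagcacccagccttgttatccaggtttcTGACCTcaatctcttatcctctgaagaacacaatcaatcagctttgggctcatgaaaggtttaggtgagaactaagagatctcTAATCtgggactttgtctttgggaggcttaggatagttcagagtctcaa
Opn1mw: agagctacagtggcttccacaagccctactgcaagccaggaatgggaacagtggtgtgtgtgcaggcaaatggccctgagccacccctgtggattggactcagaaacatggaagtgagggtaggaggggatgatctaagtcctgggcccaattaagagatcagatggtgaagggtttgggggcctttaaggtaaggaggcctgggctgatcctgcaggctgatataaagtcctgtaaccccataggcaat
Arr3: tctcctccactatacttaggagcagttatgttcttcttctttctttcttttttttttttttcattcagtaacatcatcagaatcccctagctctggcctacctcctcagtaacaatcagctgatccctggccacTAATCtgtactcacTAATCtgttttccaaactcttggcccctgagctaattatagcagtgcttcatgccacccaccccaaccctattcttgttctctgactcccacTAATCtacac
Rgs9: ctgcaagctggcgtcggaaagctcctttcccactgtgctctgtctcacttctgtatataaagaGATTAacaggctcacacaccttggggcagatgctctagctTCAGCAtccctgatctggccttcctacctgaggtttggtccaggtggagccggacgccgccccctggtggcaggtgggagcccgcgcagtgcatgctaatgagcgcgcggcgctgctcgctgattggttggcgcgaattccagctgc
The windows are chr6:29380514-29380763 (minus strand), chrX:74127216-74127465 (plus strand), chrX:100605247-100605496 (plus strand) and chr11:109298182-109298431 (minus strand). The Arr3 window held TAATC 3 times, with the first letters 116, 102 and 10 bases before the start, a number reached by 0.554% of the 32851 windows of this length. TAATC was chosen after these sequences were seen, so its shares are a description and no enrichment is read from them. The Opn1sw window held the homeodomain core once, 49 bases before the start, and the nuclear receptor letters at 2 places, 1 of which runs into the single match to the NRL letters on the other strand. The Rgs9 window held the homeodomain core and the NRL letters once each. The windows of Opn1mw, Grk1 and Opn3 held none of these runs, and that of Opn4 held 1 match to the NRL letters. The homeodomain core stood in 3 of the 7 windows of measured genes, against 19.8% of all windows. The NRL letters stood in 3 of 7, against 16.1%, and the nuclear receptor letters in 1 of 7, against 14%. The longer form TAATCC stood in 0 of 7, against 6.25%. Sag, which was not measured, is left out of these counts. Its window held TAATCC on the other strand, 87 to 82 bases before the start, and matches to the other letters too. Rcvrn is not in the table of windows. A match is a run of letters and was not tested as a binding site.

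Between tissues, 5 of the 8 measured genes were higher in retina (Rcvrn, Opn1sw, Arr3, Opn1mw and Grk1), 2 were lower (Rgs9 and Opn3) and Opn4 was not called. A probe was called at an adjusted p under 0.05 (limma, Benjamini-Hochberg adjustment over the whole table) and a difference of at least 2-fold. Of all probes 25.4% were called, 12.1% higher and 13.3% lower. Without normalization, higher calls made up 24.5% of all calls, against 47.6% as reported, and the median of all probes moved to -0.41, while the calls of the 8 genes stayed the same. The values of the tissues did not overlap in 6 of the 8 genes, against 40.5% of all probes, and they overlapped in Opn3 and Opn4. The median difference over the 8 genes was 6.08. In such bulk RNA, more cells of a type and more RNA per cell cannot be told apart.

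**Figure D1:**
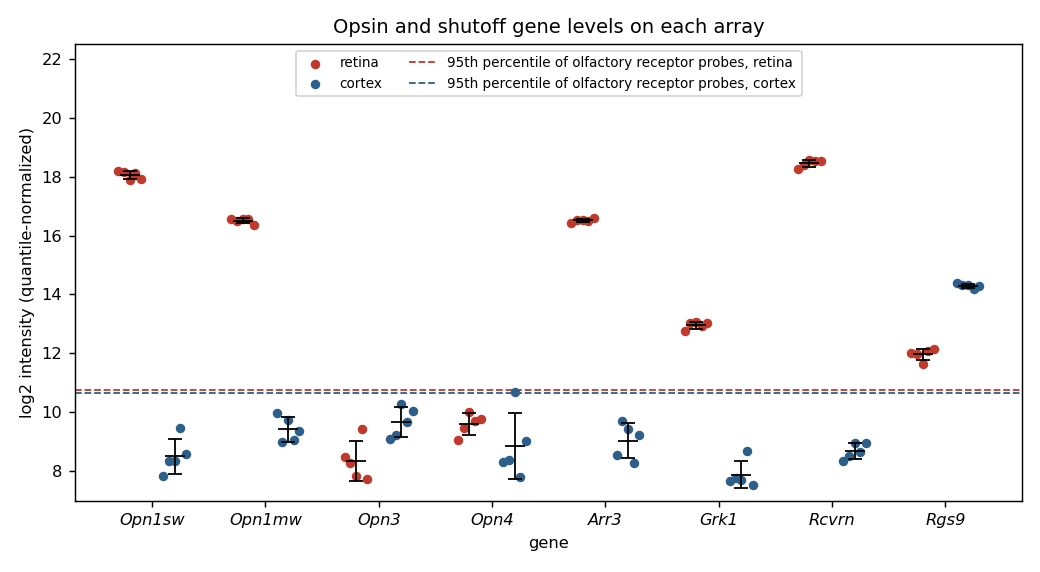
Quantile-normalized log2 intensity of the 8 measured genes on the 5 retina arrays (red, left) and the 5 cortex arrays (blue, right), with the mean and SD in black and the 95th percentile of olfactory receptor probes dashed (10.77 in retina, 10.65 in cortex). Opn1sw, Opn1mw, Arr3, Grk1 and Rcvrn sit above the dashed lines in retina and below them in cortex, and Rgs9 sits above them in both tissues, higher in cortex.

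Both cone opsin genes were far higher in retina. Opn1sw, which encodes the short-wave cone opsin, was at 18.18, 18.17, 17.87, 18.11 and 17.92 log2 units on the 5 retina arrays, against 7.83, 8.35, 8.34, 9.46 and 8.59 on the cortex arrays. All retina values lay far above all cortex values, and the cortex values were the more scattered. The difference was 9.53 (SE 0.20, limma adjusted p = 3.02e-16). On the deposited scale the probe read 197580 to 258290 in retina and 264 to 804 in cortex.

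Opn1mw, which encodes the middle-wave cone opsin, was at 16.55, 16.51, 16.57, 16.54 and 16.37 on the retina arrays and at 9.96, 9.0, 9.73, 9.06 and 9.35 on the cortex arrays. Here too the groups did not overlap. The difference was 7.09 (SE 0.15, limma adjusted p = 2.4e-16). The cortex means of both cone opsins were below the olfactory receptor percentile, so the size of each difference rests on dim cortex signal. Set against that percentile in cortex instead of their own cortex value, the retina means stood 7.40 log2 units higher for Opn1sw and 5.86 for Opn1mw.

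The opsins known from outside rods and cones gave another picture. Opn3, which encodes encephalopsin, an opsin first known from brain, was at 8.50, 8.27, 7.83, 9.42 and 7.73 in retina and at 9.10, 9.22, 10.29, 9.68 and 10.04 in cortex. Only retina array 4 reached into the cortex range. The difference was -1.31 (SE 0.38, limma adjusted p = 0.0083), a call of lower in retina made from signal below the olfactory receptor percentile in both tissues. With an offset of 500 before the log the difference was -0.65, under the 2-fold minimum, and against a 1.5-fold difference the limma adjusted p was 0.135.

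Opn4 encodes melanopsin, the photopigment of intrinsically photosensitive ganglion cells. Its probe was at 9.07, 9.47, 10.02, 9.71 and 9.76 in retina and at 8.31, 8.39, 10.68, 7.80 and 9.04 in cortex. The highest of the 10 values was on cortex array 3, and both tissue means were below the olfactory receptor percentile. The difference of 0.76 (SE 0.45, 95% interval -0.20 to 1.73, limma adjusted p = 0.196) was not called, and the interval includes differences above 2-fold. Without cortex array 3 it was 1.22 (limma adjusted p = 0.00904) and passed. Of 4 markers of the same ganglion cells none was higher in retina. Adcyap1, a neuropeptide gene of these cells that other neurons also use, was lower (-1.48, SE 0.15, limma adjusted p = 3.27e-07), and Eomes, Tbx20 and Trpc7 were not called (-0.07, 0.64 and -0.19). Eomes and Tbx20 were below the olfactory receptor percentile in both tissues, so little is read from them.

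Among opsins of the same family that are not photoreceptor pigments, Rgr and Rrh, which encode opsins of the pigment epithelium (and, for Rgr, of Müller glia), were higher by 7.29 (SE 0.24) and 5.86 (SE 0.20). Opn5, the neuropsin gene, averaged 7.53 ± 0.45 in retina against 7.14 ± 0.39 in cortex (SD, n = 5) and was not called. The median over these 3 genes was 5.86. The pigment epithelium list, of which 5 of 6 genes were higher, had a mean level of 12.79 to 13.23 on retina arrays and 9.22 to 9.54 on cortex arrays. Its part in the values of Rgr and Rrh was not tested.

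**Figure D2:**
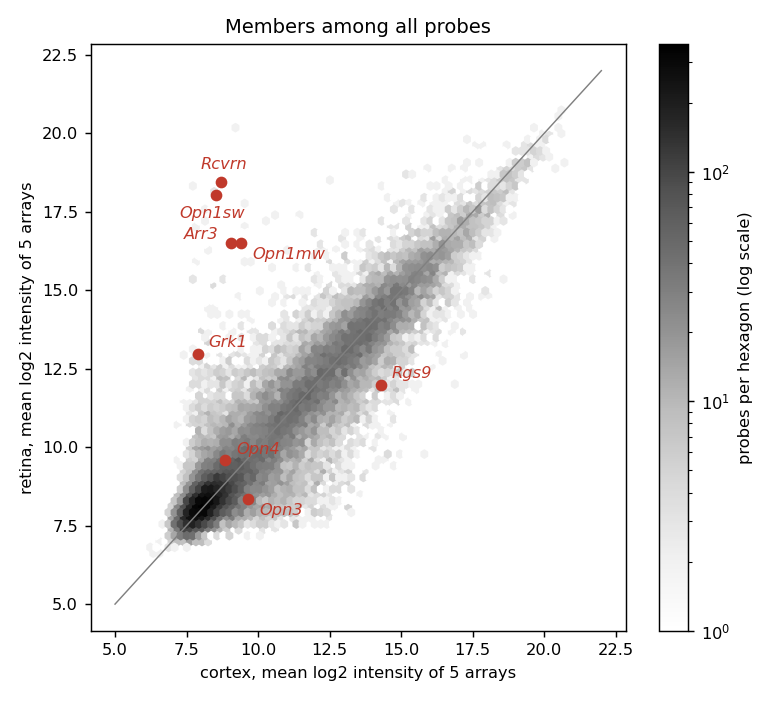
Mean log2 intensity over the 5 retina arrays (vertical) and the 5 cortex arrays (horizontal) for all 33012 probes in grey, with the 8 measured genes in red and the line of equal values. Rcvrn, Opn1sw, Arr3, Opn1mw and Grk1 stand well above the cloud on the retina side, Rgs9 stands below the line, and Opn3 and Opn4 lie within the dim part of the cloud.

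Of the genes that end the response, Arr3 encodes cone arrestin, which binds phosphorylated cone pigment. It was at 16.43, 16.51, 16.54, 16.49 and 16.58 in retina, against 8.54, 9.72, 9.44, 8.29 and 9.24 in cortex. The retina arrays lay close together while the cortex arrays were spread widely, and the groups did not overlap. The difference was 7.47 (SE 0.20, limma adjusted p = 7.35e-15), and the retina mean was 5.87 above the olfactory receptor percentile of cortex. The arrestins that serve most other receptors were not higher. Arrb2 was lower in retina (11.98 ± 0.15 in retina against 13.24 ± 0.09 in cortex, SD, n = 5; difference -1.26, limma adjusted p = 9.38e-10), and Arrb1, dim in both tissues, was at 0.17 (SE 0.31), a value that was negative without normalization (-0.31).

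Grk1, the kinase that phosphorylates light-activated pigment in rods and in mouse cones, was at 12.75, 13.02, 13.07, 12.92 and 13.02 in retina and at 7.69, 7.79, 7.72, 8.68 and 7.54 in cortex. No value of one tissue came near those of the other, and cortex array 4 stood above the other cortex arrays. The difference was 5.07 (SE 0.22, limma adjusted p = 4.14e-12). Set against the olfactory receptor percentile of cortex, the retina mean stood 2.31 higher. The receptor kinase genes Grk4, Grk5 and Grk6, which serve other receptors, were at -0.63, -0.45 and -0.68 and were not called. Grk4 was dim in both tissues. Grk5 and Grk6 (limma adjusted p = 0.00935 and 0.00118) missed only the 2-fold minimum. Grk2 and Grk3, also listed, had no probe with them as single symbol. Of the 5 measured genes of the list of other arrestins and receptor kinases, 0 passed as higher, 1 passed as lower and 4 did not pass, and the median was -0.63. Without normalization Grk4 (-1.07) and Grk6 (-1.16) passed as lower.

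Rcvrn encodes recoverin, a calcium sensor that binds the kinase Grk1 when calcium is high. It was at 18.27, 18.39, 18.56, 18.54 and 18.52 in retina and at 8.36, 8.53, 8.97, 8.65 and 8.96 in cortex. The groups lay far apart, and the difference was 9.76 (SE 0.11, limma adjusted p = 2.08e-19). The retina mean stood 7.81 above the olfactory receptor percentile of cortex. Since the cortex means of Rcvrn, Opn1sw, Arr3, Opn1mw and Grk1 were all below that percentile, no order is read among the 5 differences. The log2 ratios of Opn1sw over Opn1mw, Grk1 over Rcvrn, Opn3 over Opn4 and Grk1 over Rgs9 on each array were compared between tissues by exact permutation, but each pair held at least 1 probe below the percentile in cortex, so no difference between genes is drawn from them.

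Other neuronal calcium sensors were divided. Of 7 measured genes 3 passed as higher, 1 passed as lower and 3 did not pass, and the median was 0.77. The higher ones were Guca1a and Guca1b, activators of photoreceptor guanylate cyclase (11.03, SE 0.16, and 8.52, SE 1.1), and Hpcal1 (1.33, SE 0.095), which fell under the 2-fold minimum without normalization (0.89). The retina arrays were far apart for Guca1b, at 12.68 to 19.18 (16.76 ± 3.28 in retina against 8.25 ± 1.14 in cortex, SD, n = 5). Ncs1, a sensor of synaptic terminals, was lower on both of its probes (-2.31, SE 0.13, and -2.11, SE 0.15). Ncald, Vsnl1 and Hpcal4 were at -0.96, -0.24 and 0.77. Ncald passed as lower without normalization (-1.34). It also passed against a 1.5-fold difference, a test without the 2-fold minimum.

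**Figure D3:**
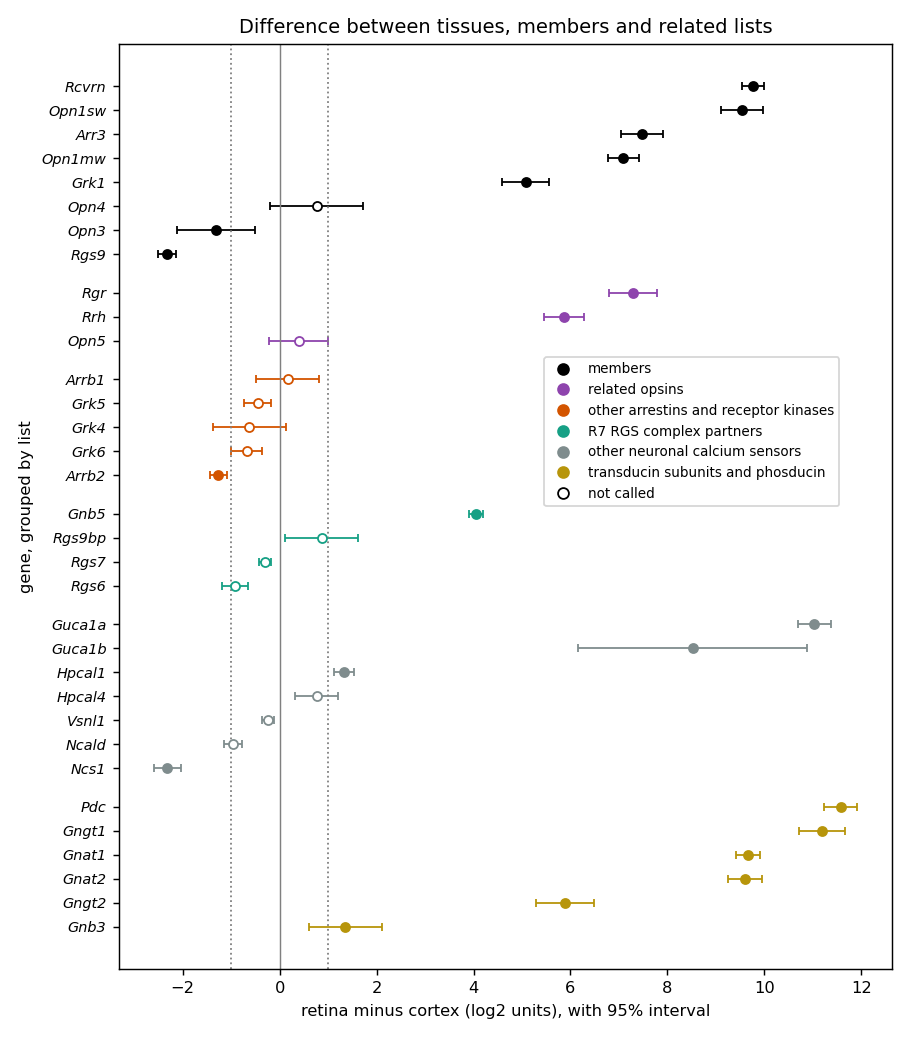
Retina minus cortex difference in log2 units with its 95% interval for the 8 measured genes (black) and 5 lists of related genes, each on 1 row, open where not called, with dotted lines at the 2-fold minimum. Rcvrn (9.76) and Rgs9 (-2.33) mark the extremes of the 8, and Gnb5 (4.05) stands apart from Rgs9bp, Rgs6 and Rgs7.

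Rgs9 went against the other shutoff genes. It encodes the GTPase-activating protein that ends the transducin signal in photoreceptors, and a longer form of the protein serves dopamine and opioid signalling in striatum; which form the probe reads is not given in the sources used here. Its probe was at 12.0, 11.98, 11.64, 12.08 and 12.15 in retina and at 14.39, 14.31, 14.31, 14.20 and 14.27 in cortex. Every cortex value was above every retina value, and both means were above the olfactory receptor percentile, so this was the single gene of the 8 measured in the bright range in both tissues. As deposited, before normalization, the values were 2660 to 4207 in retina and 20876 to 24672 in cortex. The level was 5.02-fold higher in cortex after normalization (difference -2.33, SE 0.086, limma adjusted p = 3.62e-13), and the difference was -2.75 without normalization and -2.21 with median centring.

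The genes of the striatal projection neuron list, which bear on the longer form of Rgs9, did not move one way. Pde10a (-2.57, SE 0.12) and Ppp1r1b (-1.83, SE 0.067) were lower in retina, the dopamine receptor genes Drd1 (1.56, SE 0.056) and Drd2 (2.69, SE 0.16) were higher, and Penk (-0.43) and Tac1 (0.38) were not called. The mean level of these 6 genes was 13.54 to 13.68 on retina arrays and 13.53 to 13.77 on cortex arrays, and their part in the Rgs9 value was not tested.

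The partners and relatives of Rgs9 did not move one way. Differences were positive for the partners Gnb5 and Rgs9bp and negative for the relatives Rgs6 and Rgs7. Gnb5, the G protein beta subunit that Rgs9 protein needs to be stable, averaged 18.15 ± 0.14 in retina against 14.11 ± 0.12 in cortex (SD, n = 5) and was higher by 4.05 (SE 0.070, limma adjusted p = 2.5e-17). Rgs9bp, which anchors the complex in photoreceptor membranes, was dim in both tissues and not called (0.87, SE 0.35, limma adjusted p = 0.0542), although it passed on leaving out retina array 4 (1.05) or cortex array 4 (1.05). Of the relatives Rgs7 and Rgs6, which also pair with Gnb5, Rgs7 was at -0.31 (limma adjusted p = 0.000213) and Rgs6 at -0.91 on its brighter probe (limma adjusted p = 9.26e-06), both under the 2-fold minimum. Retina and cortex values did not overlap for Rgs7 or for the brighter Rgs6 probe, which held for 40.5% of all probes. That Rgs6 probe was called lower without normalization (-1.35) and without retina array 5 (-1.01). It also passed against a 1.5-fold difference, a test without the 2-fold minimum (limma adjusted p = 0.0404). A second Rgs6 probe, dim in both tissues and with overlapping values, was called lower as reported (-1.64, SE 0.53). Of these 4 measured genes 1 passed as higher and 3 did not pass, and the median was 0.28.

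Of a list of transducin subunit genes and Pdc, the gene of phosducin, a protein that binds the beta and gamma subunits, 6 of 6 measured genes were higher, with a median of 9.63. Pdc was higher by 11.57 and the rod gamma subunit gene Gngt1 by 11.19. The rod and cone alpha subunit genes Gnat1 and Gnat2, whose products the Rgs9 complex switches off, were higher by 9.66 and 9.60, and the cone gamma subunit gene Gngt2 by 5.88. The cone beta subunit gene Gnb3 was called from values below the olfactory receptor percentile in both tissues (1.36, SE 0.35), and its tissues overlapped. It lost its call without normalization (0.93), with an offset of 500 (0.76) and against a 1.5-fold difference (limma adjusted p = 0.0838). Gnb1, also on the list, had no probe with it as single symbol.

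Repeat retina arrays agreed closely for the 6 of the 8 genes that were bright there. Over the retina arrays the SD was 0.14 log2 units for Opn1sw, 0.08 for Opn1mw, 0.06 for Arr3, 0.13 for Grk1, 0.12 for Rcvrn and 0.20 for Rgs9, where probes within 0.5 log2 units of the same brightness had a median SD of 0.10 to 0.16. In cortex, the SD of the 7 genes below the percentile ran from 0.27 for Rcvrn to 1.12 for Opn4, against 0.07 for the bright Rgs9. Opn4 on the cortex arrays was the most variable of these, at 1.12, where probes of like brightness had a median SD of 0.59. The number of arrays limits this precision.

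Apart from Opn3 and Opn4, the pattern of each gene over the 10 arrays was like that of many others, since the arrays come from only 2 pools. For Rcvrn the closest named genes by Pearson correlation of log2 values over the 10 arrays were Susd3 and Gpsm2 (r = 0.9997 and 0.9996), and 771 named probes exceeded 0.99. For Opn1sw they were R3hcc1l (0.9991) and Nxnl1 (0.9988), for Arr3 Zcchc3 (0.9986) and Syp (0.9978), and for Rgs9 Evl and Sqle (0.9984 each). For Opn1mw they were Clstn1 and Mgarp (0.9986 each), and for Grk1 Mpdz (0.9982) and a gene listed as 1190005I06Rik (0.9979). No named probe exceeded 0.99 for Opn3, whose closest were Senp5 and Cuzd1 (0.9505 and 0.9503), or for Opn4, whose closest were 9130019O22Rik and Sytl2 (0.9206 and 0.917). Apart from those of Opn3 and Opn4, these correlations mostly restate the difference between the pools. Sytl2, for example, differed between tissues by only 0.22 (limma adjusted p = 0.304).

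**Figure D4:**
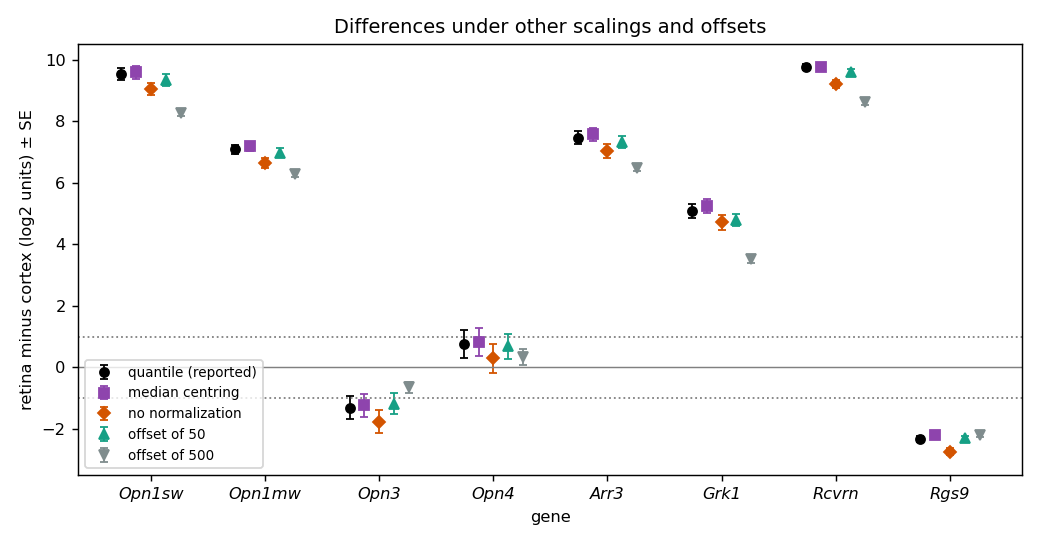
Retina minus cortex difference in log2 units (± SE from limma) of the 8 measured genes under quantile normalization as reported, median centring, no normalization and offsets of 50 and 500 before the log, with dotted lines at the 2-fold minimum. The direction of all 8 holds under these 5 settings, and only Opn3 moves inside the dotted lines, with the offset of 500 (-0.65).

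The largest effect of these settings on the higher genes came from the offset of 500, which compresses dim values. With it, the difference was 8.27 for Opn1sw, 6.29 for Opn1mw, 6.48 for Arr3, 3.51 for Grk1 and 8.61 for Rcvrn, each still called higher in retina by limma, and -2.19 for Rgs9.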

How the data were processed

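The linear intensity values deposited by the authors were used as given. The labelled RNA was digoxigenin cRNA detected by chemiluminescence, per the labels' protocols; scanner software, background correction and scaling are not given in the sources used here. Of the values, 0 were at or below 0. Values were put on the log2 scale, and since array medians spanned 0.682, above a tolerance of 0.1, the arrays were quantile-normalized. Retina was compared with cortex over all 33012 probes with limma 3.58.1 in R 4.3.3 (lmFit, eBayes with intensity trend, 2-sided, Benjamini-Hochberg). Within-array ratios of 4 pairs of genes were tested with exact permutation in scipy 1.17.1; these pairs hold probes in the dim range, so nothing is drawn from them, and the pair of Sag with Arr3 could not be run. The probe with the highest mean stood for a list gene. Probe names came from the platform annotation. The scripts were tested on simulated data.

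The 9 genes, the lists, the marker lists and the olfactory receptor yardstick were chosen with earlier results of these data known. All 9 genes and any gene of the lists may be named. Promoter motifs were chosen without a plan, and TAATC after the sequences were seen. Alternatives were no normalization, median centring, offsets of 50 and 500, a filter on dim probes, eBayes without trend, a 1.5-fold test, a replicate block and leaving out each array. The 1.5-fold test called a probe at an adjusted p under 0.05 alone, without the 2-fold minimum.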

Additional observations from a re-analysis of the deposited data

Results flagged for a closer look

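One of 16 sets of 5 values (8 genes in 2 tissues) had an array far from the rest. Grk1 on cortex array 4 was at 8.68, where the other 4 cortex arrays were at 7.54 to 7.79, a gap of 0.78 of the whole range where the 95% critical value is 0.71. Chance alone gives such a gap in about 1 of 20 sets. Opn1sw was also highest on that array among the cortex arrays, at 9.46, whereas Arr3 was lowest there, at 8.29. Without cortex array 4 the Grk1 difference was 5.27, still called higher in retina by limma.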

How the results depend on the processing

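Opn1sw, Opn1mw, Arr3, Grk1, Rcvrn and Rgs9 kept their direction and call under every alternative run. Opn3 lost its call with an offset of 500 (-0.65) and against a 1.5-fold difference (-1.31, adjusted p = 0.135), so that 1 gene was called lower, as also where dim probes were left out, a filter that removes Opn3 and Opn4 and gives them no value. Opn4 ranged from 0.50 to 1.22 on leaving out single arrays and was called only without cortex array 3, which made the number of genes called higher 5 to 6; the number called lower stayed at 2 on leaving out single arrays. Without normalization 2474 probes of the whole table were called higher and 7621 lower, against 3987 and 4392 as reported. Of the genes in the lists, Arrb1 (-0.31) and Tac1 (-0.010) changed sign without normalization, and Eomes ranged from -0.19 to 0.051 on leaving out single arrays; none of the 3 was called. The within-array ratios rest on probes in the dim range of cortex and support no order of genes. On leaving out single arrays their differences ranged from 2.14 to 2.77 for Opn1sw over Opn1mw, from -2.38 to -1.81 for Opn3 over Opn4, from -4.84 to -4.48 for Grk1 over Rcvrn and from 7.29 to 7.62 for Grk1 over Rgs9. Over all probes, arrays with the same replicate number did not deviate together (correlations of -0.0202 to 0.0288). These correlations include the many dim probes, and whether arrays of the same number shared a run was not tested. With a replicate block, limma changed no call of the 8 genes, and an exact sign-flip test of the ratios (2.45, -2.07, -4.69 and 7.40) gave p = 0.0625 each, the smallest that 5 pairs allow. Dim cortex signal limits the size of the differences of Opn1sw, Opn1mw, Arr3, Grk1 and Rcvrn.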
